A study of Mus musculus with 2 samples.

Results

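Interferon-stimulated genes were examined in tunica muscularis, the muscle layers that surround the gut, taken from the jejunum of mice with or without *Dnmt1* in smooth muscle. The 43 genes were taken by symbol from the deposited mRNA-seq table, and all 43 were among its 18159 listed genes. The *Dnmt1*-KO mice carry floxed *Dnmt1* alleles deleted by *Cre*, which a *Myh11* promoter drives together with *eGFP*. The deletion is thus directed to smooth muscle cells, and *Dnmt1* in the other cells of the tissue was not measured here. The *Dnmt1*-WT mice carry the same *Cre*-*eGFP* transgene. The background is C57BL/6 in both genotypes, and all mice were 15 days old. Each genotype is represented by 1 library. According to the study's methods, several mice of both sexes contributed to each, and how their RNA was combined is not stated. Both samples share a free-text note naming the deleted allele, while the genotype label and title of one give *Dnmt1*-WT, which was followed here. *Dnmt1* itself had a level of 11.58 FPKM in the *Dnmt1*-WT library against 7.58 in the *Dnmt1*-KO library. FPKM count sequenced fragments scaled to transcript length and to the size of the library, so levels can be compared between genes. With 1 library per genotype there is no spread between replicates, no difference could be tested, and every ratio compares these libraries only. The number of reads per gene is not known, and the smallest non-zero level in either library was 0.03 FPKM.

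Interferons are secreted proteins that cells release on sensing viral or displaced nucleic acid. Type I interferons signal through a receptor whose kinases activate a transcription factor complex with STAT2 and IRF9 that binds the interferon-stimulated response element (ISRE), while the response to interferon-gamma runs through the gamma-activated site (GAS). The induced genes encode sensors and transcription factors that reinforce the response, effectors that block viral RNA and entry, GTPases that attack vacuoles of intracellular parasites, and the immunoproteasome, which cuts peptides for MHC class I. Many of them have a basal level in resting macrophages and endothelium.

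Promoter windows of 300 bases, from 250 before to 50 after an annotated start, were available in RefSeq (GRCm38.p6) for 34 of the 43 genes, and *Usp18*, *Mx1*, *Mx2*, *Oas2*, *Dhx58*, *Zbp1*, *Ifi27*, *Iigp1* and *Tmem173* had none. Each window was searched on both strands for the ISRE core, which is GAAA, then NN (any bases), then GAAA, and for the GAS letters TTCNNNGAA, which read the same on either strand. The following 5 windows, written 5′ to 3′ along the gene with every match in capitals, show the ISRE core in *Isg15*, its presence in the clustered genes *Ifitm2* and *Ifitm3*, whose levels differed in direction, and the GAS letters in *Psmb8* and *Irf1*.
Isg15, chr4:156200769-156201068, minus strand: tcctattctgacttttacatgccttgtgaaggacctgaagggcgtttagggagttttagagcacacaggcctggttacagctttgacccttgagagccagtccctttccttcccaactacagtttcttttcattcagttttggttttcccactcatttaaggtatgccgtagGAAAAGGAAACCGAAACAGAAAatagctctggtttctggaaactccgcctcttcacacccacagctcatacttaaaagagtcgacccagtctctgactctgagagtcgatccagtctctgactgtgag
Ifitm2, chr7:140955912-140956211, minus strand: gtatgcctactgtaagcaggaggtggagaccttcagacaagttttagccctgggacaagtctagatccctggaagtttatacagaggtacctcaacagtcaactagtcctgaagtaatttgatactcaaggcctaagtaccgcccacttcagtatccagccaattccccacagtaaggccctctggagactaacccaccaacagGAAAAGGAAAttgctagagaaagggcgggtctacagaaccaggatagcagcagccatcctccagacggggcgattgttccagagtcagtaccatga
Ifitm3, chr7:141010695-141010994, minus strand: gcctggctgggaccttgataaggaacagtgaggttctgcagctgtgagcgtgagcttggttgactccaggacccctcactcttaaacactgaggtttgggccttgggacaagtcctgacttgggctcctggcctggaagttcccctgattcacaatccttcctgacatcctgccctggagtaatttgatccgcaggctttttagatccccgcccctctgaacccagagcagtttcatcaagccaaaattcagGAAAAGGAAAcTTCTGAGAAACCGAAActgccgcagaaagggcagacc
Psmb8, chr17:34197945-34198244, plus strand: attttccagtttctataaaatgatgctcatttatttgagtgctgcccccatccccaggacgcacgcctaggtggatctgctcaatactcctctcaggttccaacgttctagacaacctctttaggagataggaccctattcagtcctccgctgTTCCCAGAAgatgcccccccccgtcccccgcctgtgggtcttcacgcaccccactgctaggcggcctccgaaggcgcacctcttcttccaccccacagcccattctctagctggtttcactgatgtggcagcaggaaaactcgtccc
Irf1, chr11:53769764-53770063, plus strand: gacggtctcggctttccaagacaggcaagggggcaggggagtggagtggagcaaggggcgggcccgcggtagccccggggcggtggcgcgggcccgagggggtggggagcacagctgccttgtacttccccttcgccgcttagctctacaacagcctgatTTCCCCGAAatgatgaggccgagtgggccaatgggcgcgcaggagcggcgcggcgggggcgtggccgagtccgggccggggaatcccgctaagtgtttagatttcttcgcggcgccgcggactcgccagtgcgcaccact

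In *Isg15*, 3 overlapping ISRE matches formed 1 run that began at position -78, counted from the start. *Ifitm2* had 1 match, at position -46, and *Ifitm3* had 2, at positions 3 and 20 of the transcript, the latter of which shared bases with a GAS match. The GAS letters began at position -97 in *Psmb8* and -90 in *Irf1*. All windows of *Psmb8*, *Psmb9*, *Ifitm1*, *Irf9* and *Irgm1* lay inside the gene as annotated in GENCODE M21, so the outermost start of these genes was not searched. Across the set, 17 of the 34 genes, or 50%, had an ISRE core in at least 1 window, against 3.99% of the 27025 genes of the RefSeq table. GAS letters were found in 11 of 34, or 32.4%, against 9.55% of all genes. Only 5 genes had both, and in *Bst2* and *Ifitm3* the matches shared bases, while 11 genes, among them *Psmb9*, *Ifitm1* and *Irf9*, had neither. Of the genes that at least doubled, 7 of 17 had an ISRE core and 4 had GAS letters, and of those that did not, 10 of 17 and 7. A match describes letters in these windows and was not tested as a binding site. CG dinucleotides, the sites that DNMT1 keeps methylated, numbered 32 in the *Irf1* window shown, 11 in that of *Psmb8*, 6 in that of *Isg15*, 5 in that of *Ifitm3* and 4 in that of *Ifitm2*. Taking the richest window of each gene, the median was 7 CG in genes that at least doubled, 11 in those that did not and 8 over all genes. Methylation of these windows was not analysed here.

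Of the 43 interferon-stimulated genes, 42 were above 0 FPKM in both libraries and 38 of these were higher in *Dnmt1*-KO, a direction found for 50.3% of all 16102 genes above 0 in both libraries. The ratio, in which *Dnmt1*-KO is divided by *Dnmt1*-WT, was 2 or more for 22 of the 42, or 52.4%, against 11.8% of all genes. None was at most halved, a change found for 4.98% of all genes. The median ratio of the 42 genes was 2.03, a log2 ratio of 1.02, where that of all genes was 0.01, and 33 of the 42 lay above the upper quartile of all genes, a log2 ratio of 0.43. The remaining gene, *Mx1*, of the dynamin-like GTPase family, was at 0 for *Dnmt1*-WT and at 0.82 FPKM for *Dnmt1*-KO. Nearest the limit of doubling were *Oasl2*, with a ratio of 2.00, and *Dhx58*, with 1.96. Ratios of 3 or more were found for 12 genes, or 28.6%, against 6.46% of all genes. A ratio of 1.5 or more was found for 31 genes, or 73.8%, against 19.7% of all genes.

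**Figure D1:**
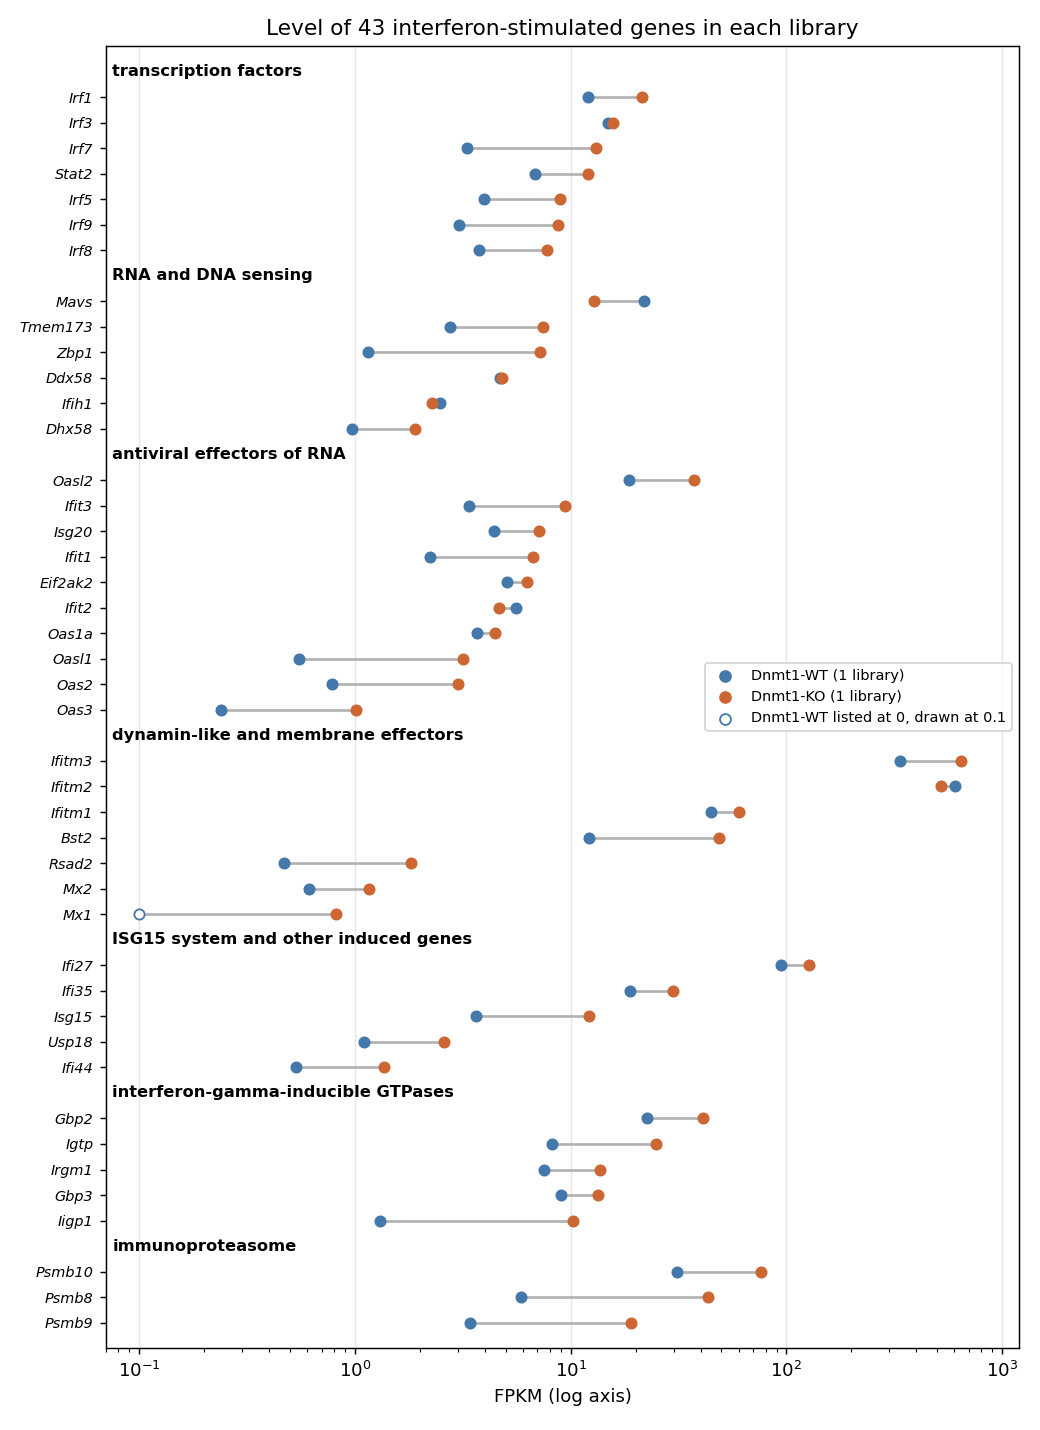
Level of each of the 43 interferon-stimulated genes in FPKM on a log axis, grouped by role, with 1 point for the *Dnmt1*-WT library and 1 for the *Dnmt1*-KO library. The *Dnmt1*-KO point lies to the right for all genes except *Mavs*, *Ifih1*, *Ifit2* and *Ifitm2*, and *Ddx58* and *Irf3* nearly coincide.

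Weakly expressed genes vary more between libraries, and the counts were therefore also taken by level. Among genes with a geometric mean under 3 FPKM, 7 of 10 interferon-stimulated genes at least doubled, against 25.8% of all genes at that level. From 3 to under 10 FPKM the count was 10 of 16, against 6.86%, and at 10 FPKM or more it was 5 of 16, against 3.61%. Those 5 abundant genes were *Psmb8*, *Psmb10*, *Bst2*, *Igtp* and *Oasl2*. With at least 1 FPKM required in both libraries, 17 of 35 at least doubled, or 48.6%, against 5.53% of all genes at such levels, and none was at most halved, against 2.82%. In absolute terms the set was dominated by *Ifitm2* and *Ifitm3*, which held 70.6% of its summed FPKM in *Dnmt1*-WT, against 61.4% in *Dnmt1*-KO. The sum of all 43 genes went from 1330.33 to 1900.33 FPKM, a ratio of 1.43. Without *Ifitm2* and *Ifitm3*, the sum of the other 41 genes went from 391.36 to 733.79 FPKM, a ratio of 1.87.

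**Figure D2:**
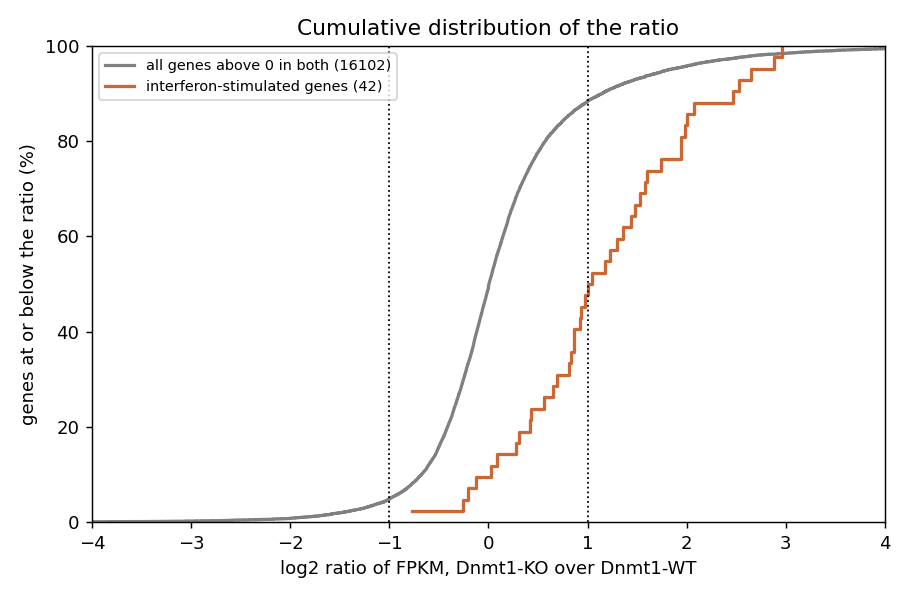
Cumulative share of genes, in percent, at or below a given log2 ratio of *Dnmt1*-KO to *Dnmt1*-WT, for all 16102 genes above 0 FPKM in both libraries and for the 42 interferon-stimulated genes among them. Dotted lines mark a ratio of 0.5 and of 2, and the curve of the interferon-stimulated genes lies to the right, with a median of 1.02 against 0.01.

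Transcription factors of the response were all higher in *Dnmt1*-KO, a direction found for 50.3% of all genes. At least doubled were 4 of 7, or 57.1%, against 11.8% of all genes. *Irf7*, which amplifies type I interferon production and is itself induced, went from 3.32 to 13.15 FPKM, a ratio of 3.96. *Irf9*, the DNA-binding partner of STAT2, went from 3.03 to 8.77 FPKM, a ratio of 2.89. Its partner *Stat2* went from 6.82 to 11.98 FPKM, a ratio of 1.76. Both genes of the ISRE-binding complex in the set were thus higher. *Irf5* and *Irf8*, factors used chiefly in myeloid and B cells, went from 3.96 to 8.94 and from 3.76 to 7.76 FPKM, with ratios of 2.26 and 2.06. *Irf8* did not reach doubling after division by the FPKM sum, with a log2 ratio of 0.94, or with 1 added to each FPKM, with 0.88. *Irf1*, which acts downstream of interferon-gamma, went from 12.04 to 21.44 FPKM, a ratio of 1.78. *Irf3*, which is activated by phosphorylation and is not itself strongly induced, was at 14.84 and 15.75 FPKM, and its log2 ratio of 0.09 became -0.02 when each library was divided by its FPKM sum. *Irf3* and *Irf1* were the most abundant of the 7 in *Dnmt1*-WT, and *Irf1*, *Irf3* and *Irf7* in *Dnmt1*-KO.

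Sensors of nucleic acid and their adaptors differed among themselves, with 4 of 6 higher, against 50.3% of all genes. *Zbp1* and *Tmem173* at least doubled, which is 33.3% of the 6 against 11.8% of all genes. Their median log2 ratio was 0.50, and was 0.03 over the genes at 1 FPKM or more in both libraries, which leaves out *Dhx58*, and 0.29 with 1 added to each FPKM. *Zbp1*, which recognises Z-form nucleic acid and can start necroptosis, went from 1.15 to 7.22 FPKM, a ratio of 6.28. *Tmem173*, which encodes STING, the adaptor of cytosolic DNA sensing, went from 2.76 to 7.46 FPKM, a ratio of 2.70. The RNA sensors had closer values in the libraries. *Ddx58*, which encodes RIG-I, was at 4.70 and 4.79 FPKM, and its log2 ratio of 0.03 was -0.07 after division by the FPKM sum. *Ifih1*, which encodes MDA5, the sensor of long double-stranded RNA, was at 2.48 and 2.27 FPKM. The regulator *Dhx58* (LGP2) was low in both libraries, at 0.97 and 1.90 FPKM. *Mavs*, the mitochondrial adaptor of both RNA sensors, was the one gene of the set that was lower by more than 1.5-fold, at 21.79 FPKM against 12.78 FPKM in *Dnmt1*-KO, a ratio of 0.587 that placed it at the 8.12th percentile of all genes. A ratio of 1/1.5 or less was found for 12.7% of all genes. It was nonetheless the most abundant of the 6 in both libraries.

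Effectors that act on RNA included the IFIT family, which binds foreign RNA ends, and the oligoadenylate synthetases, which sense double-stranded RNA. Of these 10 genes, 6, or 60%, at least doubled, against 11.8% of all genes. Among the 6, *Oas2*, *Oas3* and *Oasl1* had a geometric mean under 3 FPKM, where 25.8% of all genes at least doubled. The median log2 ratio was 1.24, and was 0.70 over the genes at 1 FPKM or more in both libraries and 0.83 with 1 added to each FPKM. *Ifit1* went from 2.23 to 6.66 FPKM and *Ifit3* from 3.38 to 9.41 FPKM, with ratios of 2.99 and 2.78. *Ifit2*, from the same cluster on chromosome 19, was lower, at 5.55 and 4.65 FPKM. The order within the family therefore differed, with *Ifit2* highest in *Dnmt1*-WT and lowest in *Dnmt1*-KO. The synthetase *Oas3* went from 0.24 to 1.01 FPKM and *Oas2* from 0.78 to 2.99 FPKM, with ratios of 4.21 and 3.83 at levels under 1 FPKM in *Dnmt1*-WT. With 1 added to each FPKM the log2 ratio of *Oas3*, 2.07, was 0.70. *Oasl1*, a synthetase-like protein without that enzyme activity, went from 0.55 to 3.18 FPKM, a ratio of 5.78. *Oasl2*, the most abundant of the group, went from 18.69 to 37.41 FPKM, and its log2 ratio was 0.90 after division by the FPKM sum. *Oas1a* was at 3.69 and 4.46 FPKM, a ratio of 1.21. *Eif2ak2*, which encodes the kinase PKR that halts translation on double-stranded RNA, was at 5.05 and 6.26 FPKM, a ratio of 1.24. The exonuclease *Isg20* was at 4.42 and 7.16 FPKM, a ratio of 1.62.

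Membrane and dynamin-like effectors spanned the widest range of levels. *Bst2*, which encodes tetherin and holds budding virus at the cell surface, went from 12.09 to 48.59 FPKM, a ratio of 4.02. The IFITM proteins hinder fusion of virus with the endosomal membrane, and their genes lie together on chromosome 7, where *Ifitm2* extends from 140954837 to 140955987 and *Ifitm3* from 141009586 to 141010770, both on the minus strand. *Ifitm3* went from 337.34 to 643.67 FPKM, a ratio of 1.91, while *Ifitm2* was at 601.63 and 522.87 FPKM, a ratio of 0.869. *Ifitm2* was thus the most abundant gene of the whole set in *Dnmt1*-WT and *Ifitm3* in *Dnmt1*-KO. *Ifitm1* was at 44.75 and 59.98 FPKM, a ratio of 1.34. *Rsad2*, which encodes viperin, an enzyme that makes a chain-terminating nucleotide, went from 0.47 to 1.81 FPKM, a ratio of 3.85, and its log2 ratio of 1.95 was 0.93 with 1 added to each FPKM. *Mx2* was at 0.61 and 1.16 FPKM, and it is annotated as a polymorphic pseudogene in GENCODE M21.

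*Isg15*, a ubiquitin-like protein that is conjugated to newly made proteins, went from 3.62 to 12.10 FPKM, a ratio of 3.34, and *Usp18*, the protease that removes it and dampens receptor signalling, from 1.10 to 2.58 FPKM, a ratio of 2.35. *Isg15* lies on the minus strand of chromosome 4 from 156199424 to 156200818. *Ifi44* was low, at 0.53 and 1.36 FPKM, a ratio of 2.57. With 1 added to each FPKM, *Usp18* and *Ifi44* were no longer doubled, at log2 ratios of 0.77 and 0.63, and the median of this group went from 1.23 to 0.63. The abundant genes of this group differed less between the libraries. *Ifi27* was at 94.11 and 126.91 FPKM, a ratio of 1.35, and *Ifi35* at 18.89 and 29.72 FPKM, a ratio of 1.57.

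The GTPases induced chiefly by interferon-gamma, which disrupt vacuoles holding bacteria and parasites, were all higher in *Dnmt1*-KO, against 50.3% of all genes. *Iigp1* had the highest ratio of the set, 7.82, and went from 1.31 to 10.24 FPKM. *Igtp* went from 8.16 to 24.77 FPKM, a ratio of 3.04. These 2 that at least doubled are 40% of the group, against 11.8% of all genes. The other 3 were higher without doubling, which left the group median at a log2 ratio of 0.86. *Gbp2*, the most abundant, was at 22.62 and 41.13 FPKM, *Irgm1*, a regulator of the other GTPases, at 7.50 and 13.61 FPKM, and *Gbp3* at 9.05 and 13.32 FPKM.

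The immunoproteasome genes had the highest median of the role groups, a log2 ratio of 2.47, and all 3 at least doubled, as did 11.8% of all genes. Each encodes a catalytic subunit that takes the place of a constitutive one in the 20S proteasome. *Psmb8* went from 5.87 to 43.13 FPKM, a ratio of 7.35. *Psmb9* went from 3.43 to 18.98 FPKM, a ratio of 5.53, and *Psmb10* from 31.05 to 76.18 FPKM, a ratio of 2.45. The constitutive subunits they replace were nearly level, *Psmb5* at 115.00 and 133.38 FPKM, *Psmb6* at 147.17 and 156.79 FPKM and *Psmb7* at 121.59 and 122.10 FPKM. The inducible gene therefore made up 4.86% of the summed FPKM of *Psmb8* and *Psmb5* in *Dnmt1*-WT, against 24.4% in *Dnmt1*-KO. For *Psmb9* with *Psmb6* the shares were 2.28% and 10.8%, and for *Psmb10* with *Psmb7* they were 20.3% and 38.4%. In every pair the constitutive gene remained the more abundant one in both libraries. The 11 other subunits of the 20S core had a median log2 ratio of 0.13. All lay at a geometric mean of 10 FPKM or more, where 3.61% of all genes at least doubled, and none of them did. *Psme1* and *Psme2*, which encode the activator that interferon-gamma induces, were at 82.69 and 144.10 FPKM and at 58.13 and 83.48 FPKM, while *Psme3*, from another activator, was at 29.02 and 30.13 FPKM.

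**Figure D3:**
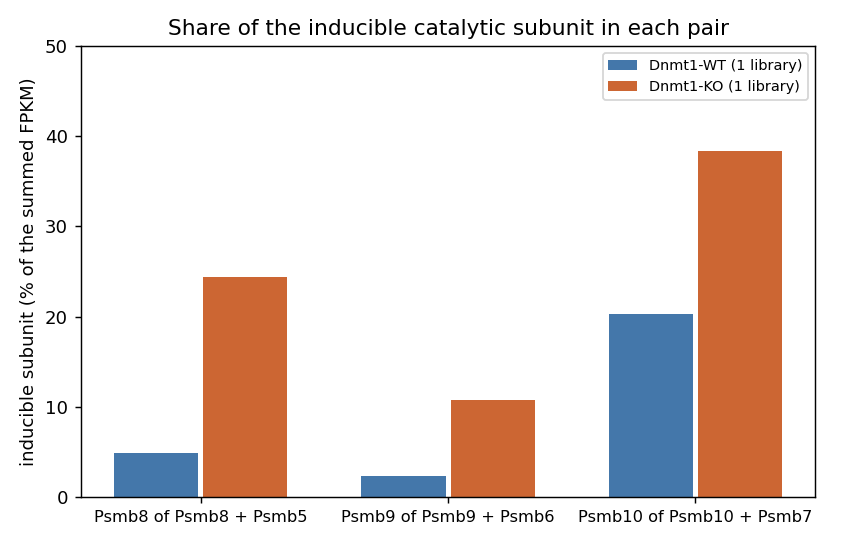
Share of the inducible catalytic subunit gene in the summed FPKM of the inducible and the constitutive gene of each pair, in percent, with 1 bar per library. The share is higher in *Dnmt1*-KO in all 3 pairs and stays under 50%, reaching 38.4% for *Psmb10*.

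Around these genes lie the ligands, receptors and kinases of the pathway, taken from lists written for this purpose. Of the interferon genes, 4 were listed in the table. *Ifnb1*, *Ifna4* and *Ifnz* were at 0 FPKM in both libraries, and *Ifng* was listed at 0 in *Dnmt1*-WT and at 0.10 FPKM in *Dnmt1*-KO. The receptor genes were expressed in both libraries. All 6 were higher in *Dnmt1*-KO, against 50.3% of all genes, and none at least doubled, against 11.8%. *Ifnar1* and *Ifnar2*, which form the type I receptor, were at 8.38 and 9.36 and at 18.26 and 26.60 FPKM. *Ifngr1*, which binds interferon-gamma, was the most abundant, at 21.03 and 27.27 FPKM, and *Ifnlr1*, the receptor of type III interferon, the least, at 0.63 and 1.18 FPKM. Among the kinases, *Jak2*, which acts at the interferon-gamma receptor, was lower, at 14.41 and 8.78 FPKM, while *Jak1* and *Tyk2* had ratios of 0.938 and 1.13. Among inhibitors and nucleic acid clearance genes, 2 of 11, or 18.2%, at least doubled, near the 11.8% of all genes. These were *Ptpn6*, a phosphatase largely of blood cells, from 1.67 to 5.55 FPKM, and *Samhd1*, which degrades nucleotides, from 8.95 to 19.61 FPKM. The feedback inhibitor *Socs1* was at 1.72 and 2.78 FPKM.

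A further 15 genes sense nucleic acid or carry its signal upstream of interferon. Of these, 13 were higher, against 50.3% of all genes, and 5, or 33.3%, at least doubled, against 11.8%. The median log2 ratio was 0.48. The doubled genes were *Tlr8*, *Tlr9*, *Unc93b1*, *Ifi204* and *Aim2*, of which all but *Unc93b1* had a geometric mean under 3 FPKM, where 25.8% of all genes at least doubled. *Unc93b1*, which carries Toll-like receptors to the endosome, was the most abundant of them, at 9.37 and 27.62 FPKM. The kinase *Tbk1*, which phosphorylates IRF3, was at 10.15 and 8.90 FPKM, and *Mb21d1*, which encodes the DNA sensor cGAS, at 0.63 and 0.73 FPKM. A further list of 42 interferon-induced genes outside the set had 40 above 0 in both libraries, of which 36 were higher, against 50.3% of all genes, and none was at most halved, against 4.98%. At least doubled were 19, or 47.5%, against 11.8% of all genes. Of the 18 with a geometric mean under 3 FPKM, 11 at least doubled, against 25.8% of all genes at that level. Its median log2 ratio was 0.95. *B2m*, the light chain of MHC class I, went from 415.79 to 1561.30 FPKM, and *Tap1*, which pumps the peptides cut by the proteasome into the endoplasmic reticulum, from 3.06 to 13.65 FPKM. *Nlrc5*, the activator of MHC class I genes, was low, at 0.12 and 1.54 FPKM. The chemokine *Cxcl10* went from 0.59 to 6.51 FPKM, and *Cxcl9*, induced by interferon-gamma, was listed at 0 and 3.06 FPKM. Among the genes lower in *Dnmt1*-KO, *Oas1c* had a ratio of 0.712, *Gbp5* of 0.822 and *Parp14* of 0.974.

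**Figure D4:**
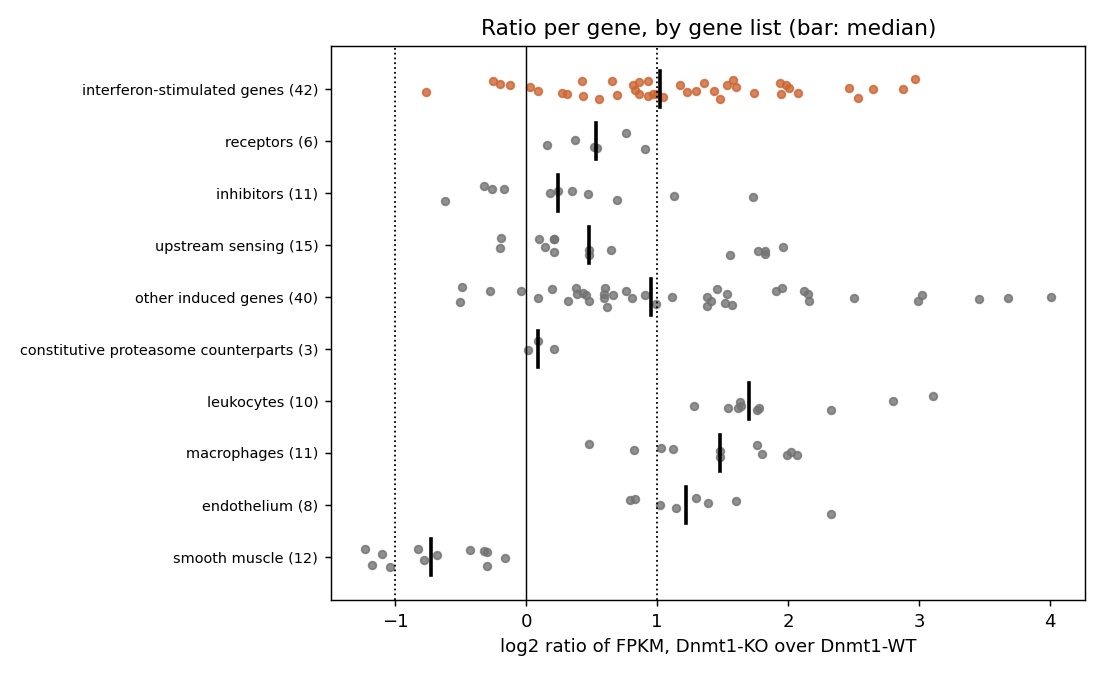
Log2 ratio of *Dnmt1*-KO to *Dnmt1*-WT for each gene of the interferon-stimulated set, of pathway and proteasome lists and of 4 cell type marker lists, with the number of genes above 0 FPKM in both libraries in parentheses. Each point is 1 gene, bars are medians and dotted lines mark ratios of 0.5 and 2, with leukocyte, macrophage and endothelial markers at medians of 1.70, 1.48 and 1.22 and smooth muscle markers at -0.73.

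Markers of several other cell types moved with the interferon-stimulated genes. Those of mesothelium, enteric glia and plasmacytoid dendritic cells did so little, at median log2 ratios of 0.01, 0.13 and 0.20. The counts of all marker lists stand against 50.3% of all genes higher, 11.8% at least doubled and 4.98% at most halved. All 10 leukocyte markers at least doubled, and their summed level went from 30.30 to 102.31 FPKM. All 11 listed macrophage markers were higher, 9 at least doubled, and their sum went from 152.28 to 521.66 FPKM. Endothelial markers were higher for all 8 genes, 6 of which at least doubled, with a sum of 77.51 and 177.61 FPKM. The 10 listed T and NK cell markers summed to 1.79 and 8.21 FPKM, and *Cd3d*, *Cd3e*, *Cd8a*, *Ncr1* and *Klrb1c* were at 0 in *Dnmt1*-WT. The 4 markers listed for plasmacytoid dendritic cells, strong producers of type I interferon, differed in direction. *Siglech* was at 0.11 FPKM in both libraries, *Ccr9* at 0.03 and 0.10 FPKM, *Pacsin1* at 7.31 and 9.66 FPKM and *Klk1* at 4.37 and 1.04 FPKM. The 12 smooth muscle markers, which were abundant in both libraries, were all lower in *Dnmt1*-KO, 4 of them at most halved, with a sum of 19943.84 and 13582.15 FPKM. Other cells of the gut wall also stood apart. All 7 Paneth cell markers above 0 in both libraries, from the epithelium, at least doubled, with a sum for the list of 22.50 and 234.83 FPKM. Enterocyte markers summed to 89.83 and 173.90 FPKM, with 7 of 8 higher and 3 at least doubled. The other, *Sis*, was at most halved, at 1.93 and 0.51 FPKM. All 7 adipocyte markers above 0 in both libraries at least doubled, with a median log2 ratio of 5.78. The list summed to 110.62 and 1208.12 FPKM, and its most abundant gene, *Fabp4*, was at 103.72 and 874.84 FPKM. Of the monocyte and neutrophil markers, *Plac8* was at 33.98 and 122.90 FPKM, *Ly6c2* at 0.14 and 2.71 FPKM, *Ccr2* at 0.07 and 1.41 FPKM, *S100a8* at 0 and 2.00 FPKM, *S100a9* at 0.33 and 0.44 FPKM and *Mpo* at 0 in both libraries. In this list 3 of the 4 markers above 0 in both libraries at least doubled, with a median log2 ratio of 3.06. The 6 dendritic cell markers were all higher, with a sum of 2.38 and 6.78 FPKM and with *Xcr1* and *Cd209a* at 0 in *Dnmt1*-WT, and B cell markers summed to 1.07 and 2.77 FPKM, with *Pax5* at 0 in both libraries. Of the 7 fibroblast markers 5 were higher, with a sum of 3317.01 and 5068.46 FPKM. Of the 4 enteric glia markers 3 were higher, and 1 of them, *Gfap*, at least doubled, from 4.78 to 35.36 FPKM. Of the 4 mesothelium markers 2 were higher. Of the 42 interferon-stimulated genes, 11 had a log2 ratio above 1.70, the median of the leukocyte markers, and 14 one above 1.48, the median of the macrophage markers. By the study's flow cytometry at the same age, *Dnmt1*-KO tissue held a larger share of immune cells and a smaller share of *eGFP*-positive smooth muscle cells. The part of cell composition in the results given here was not tested. In these bulk values, fewer cells of a type and less RNA per cell cannot be told apart.

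The deposited table also counts the transcript variants found for each gene. In *Dnmt1*-KO, 9 of the 43 genes had more variants than in *Dnmt1*-WT, 2 had fewer and 32 had as many. Among genes above 0 in both libraries, 8 of 42, or 19.0%, had more, against 12.5% of all genes, and 2 had fewer, against 13.6%. *Oas2* went from 2 to 5 variants, *Isg20* from 2 to 4 and *Mavs* from 3 to 5. *Ifit2* and *Ifitm1*, from 3 to 2 each, were the ones with fewer. The variants are not named in the table.

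Some values could hold reads of related or overlapping genes. Transcripts were compared only with those of GENCODE M21 genes that do not overlap the gene. At 90% identity or more over stretches of at least 100 bases, 8 of the 43 genes shared 20% or more of their longest coding transcript with such a gene. *Oas1a* shared 100% of it with *Oas1g*, listed at 0.74 and 1.17 FPKM, and *Ifit3* shared 97.4% with *Ifit3b*, which is not among the listed genes. *Mx1* and *Mx2* shared sequence with each other, and *Isg15*, *Ifitm1*, *Ifitm2* and *Ifitm3* did so with genes not listed. How such reads were divided is not stated, and the values of these 8 genes are uncertain to that extent. *Psmb8*, *Psmb10*, *Iigp1*, *Zbp1*, *Irf7* and *Bst2* had 3.27% or less in common with any gene that does not overlap them. Another annotated gene overlapped 18 of the 43, among them *Tap1* with *Psmb9* on the opposite strand and *Irgm2* with *Igtp* on the same strand. *Psmb8*, *Psmb10* and *Irf7* were also among the 18, each overlapped by a gene on the opposite strand. Whether the library kept strand is not stated, so reads from the shared stretches cannot be told apart.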

How the data were processed

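mRNA-seq values of jejunal tunica muscularis were analysed for 1 *Dnmt1*-WT and 1 *Dnmt1*-KO library. The authors prepared TruSeq RNA libraries, and their processing notes name TopHat 1.4.1, Cufflinks 2.0.2 and mm10 (GRCm38). The deposited values are FPKM per gene, the number of transcript variants per library and the authors' ratio, which was not used. Every value column belonged to a labelled sample. Samples were grouped by genotype label. The number of reads per gene is not known and no interval was given. With 1 library per genotype no test was made.

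Ratios of *Dnmt1*-KO to *Dnmt1*-WT used FPKM as deposited, without rescaling, over genes above 0 in both libraries. Counts past a fold of 2 were checked on simulated data. The interferon-stimulated genes, pathway lists and marker lists were chosen with earlier results of these data known. Named genes are all members, genes of those lists and *Dnmt1*. Some genes of the lists are not reported here. Alternatives covered scaling, filters, pseudocount and fold. Positions and transcripts came from GENCODE M21, promoters from RefSeq. Near-identical transcripts were compared with BLAST 2.17.0 in place of proteins, which were not used here. Python 3.11.15, numpy 2.4.6, pandas 2.3.3 and matplotlib 3.10.9 were used.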

Additional observations from a re-analysis of the deposited data

How the results depend on the processing

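The number of interferon-stimulated genes with a ratio of 2 or more was 22, and stayed between 16 and 22 under the scalings, filters and pseudocounts tried, counted on unrounded ratios. *Dhx58*, which reaches a ratio of 2 only by rounding under centring and upper-quartile scaling, was not counted. At a fold of 3 it was 12, and at a fold of 1.5 the number of genes lowered by at least that much was 1, *Mavs*, in place of none at most halved. The median log2 ratio, 1.02, was 1.05 after centring the median of genes at 1 FPKM or more in both libraries on 0 and after scaling to the upper quartile, 0.92 after division by the FPKM sum, 0.93 after division by that sum without small RNA genes, 0.93 over genes at 1 FPKM or more in both libraries, 1.03 with 0.1 added to each FPKM and 0.83 with 1 added. Only *Irf3* and *Ddx58* changed sign, under both divisions by an FPKM sum, which shifted all log2 ratios by 0.10 or less. With 0.1 or 1 added to each FPKM, *Mx1*, at 0 and 0.82 FPKM, also entered, so those counts and medians are over 43 genes. With 0.1 added, *Mx1* counted as doubled and *Oasl2* fell just short of it. Adding 1 to each FPKM moved the weakest genes most, and *Oas3*, *Rsad2*, *Ifi44*, *Usp18*, *Irf8* and *Oasl2* no longer doubled, at log2 ratios of 0.70, 0.93, 0.63, 0.77, 0.88 and 0.96. Division by the FPKM sum left *Irf8* and *Oasl2* below doubling. No replicate could be left out with 1 library per genotype. No paired analysis was possible because each genotype has 1 library. Depth per gene is unknown, so differences between values near 0.03 FPKM carry little weight.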

Other observations

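Genes of the interferon-inducible p200 family, which bind DNA in the nucleus or cytosol, were higher in *Dnmt1*-KO for all 4 members on the lists. That direction was found for 50.3% of all genes. *Ifi204*, *Ifi205* and *Aim2* had a geometric mean under 3 FPKM, where 25.8% of all genes at least doubled. *Ifi203* was at 2.58 FPKM in *Dnmt1*-WT and 6.85 FPKM in *Dnmt1*-KO, *Ifi204* at 0.96 and 3.38 FPKM, *Ifi205* at 0.21 and 1.67 FPKM and *Aim2* at 0.12 and 0.41 FPKM. The guanylate-binding protein genes differed among themselves. *Gbp4*, *Gbp6* and *Gbp9* had ratios of 4.33, 2.98 and 2.60, *Gbp7* and *Gbp8* had ratios of 1.15 and 1.34, and *Gbp5* was lower, at 4.37 and 3.59 FPKM. *Gbp10* was listed at 0 in *Dnmt1*-WT and 0.37 FPKM in *Dnmt1*-KO.

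*Phf11b* had the highest ratio of the further interferon-induced genes, 16.1, at 0.23 and 3.70 FPKM, while its relatives *Phf11a* and *Phf11d* had ratios of 2.74 and 1.76. Among the Schlafen genes, *Slfn2*, which is active in lymphoid and myeloid cells, was at 0.88 and 7.13 FPKM, *Slfn5* at 2.05 and 5.91 FPKM and *Slfn8* at 1.32 and 1.73 FPKM. The most abundant of the list after *B2m* was *Ifi27l2a* in *Dnmt1*-KO, at 166.97 FPKM against 43.34 FPKM in *Dnmt1*-WT. These genes belong to families with similar members, and how reads were divided among them was not tested.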
